A study of Homo sapiens with 8 samples.

Results

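Integrins, laminins and collagens were followed as 71 genes of the 19305 transcript accessions counted in every library. Members were taken by symbol (integrin alpha or beta subunits, laminin alpha, beta or gamma chains, and collagen chains) and kept with at least 10 counts in at least 2 of the 8 libraries. That left 24 of 26 integrins, 11 of 12 laminins and 36 of 44 collagens. The libraries hold polyadenylated RNA from HEK293T, a line derived from human embryonic kidney, and from H9, a human embryonic stem cell line. HEK293T cells had been given a control siRNA or one that targets eIF2A, a factor that can bring the initiator tRNA to the ribosome. All HEK293T libraries, controls included, came from cells under sodium arsenite, an oxidative stressor, and no library without it was analysed here. H9 cells had a control shRNA or one that targets eIF2A, with no arsenite named. Each of the 4 groups has 2 libraries, numbered as sets. Nothing in the labels says that the 2 were grown apart, so the spread behind the p-values may be technical. Line, arsenite and the kind of RNA interference change together between HEK293T and H9 and cannot be told apart.

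Integrins are cell-surface receptors made of an alpha and a beta subunit that bind extracellular matrix outside the cell and link to the actin cytoskeleton inside it. Laminins are trimers of an alpha, a beta and a gamma chain and, with collagen IV, form basement membranes. Collagens are triple helices of identical or related chains that form fibrils, networks or smaller assemblies. In pluripotent stem cells, integrin alpha-6 beta-1 is a main receptor for laminin, and laminin with the alpha-5 chain is used as a culture surface.

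The targeted transcript checked the labels. In HEK293T, EIF2A went from 17.5 and 18.3 CPM (counts divided by the scaled size of each library) in controls to 5.58 and 5.98 under siRNA, and in H9 it went from 15.8 and 14.8 to 5.03 and 4.67 CPM under shRNA. Gene counts per library ran from 21837052 to 32318668, of which the members took 0.118 to 0.141% in HEK293T and 0.327 to 0.398% in H9. The pluripotency transcripts NANOG, DPPA4, CRIPTO and L1TD1 were at 0 in every HEK293T library, and the 10 pluripotency markers summed to 5956 to 6397 CPM in H9 against 160.1 to 171.1 in HEK293T. The 8 kidney lineage markers summed to 225.8 to 245.3 CPM in HEK293T and 60.1 to 82.2 in H9, but of these SALL1 (21.3 to 25.3 CPM in HEK293T, 53.1 to 76.4 in H9) and PAX8 (at most 0.0871 and 3.09 to 7.18) were higher in H9. The HEK293T controls differed more between their libraries (chi-square of 4.91 per degree of freedom, where 1 is sampling noise) than the other groups (1.35 to 1.8).

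Membership turned on few counts for some genes. ITGAX and COL8A1 fell just outside, with second-highest counts of 9 and 8. COL4A3 was just inside at 11 and was the member that failed the filter on low counts, so 70 members were tested. ITGB6 had 0 counts in every library.

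In the control cells, ITGB5 and ITGA5 were among the 3 integrins with the highest levels in both lines and are subunits of receptors for vitronectin and fibronectin. Levels between genes are given per kb of transcript (CPM per kb), with the SD over 2 libraries. In HEK293T controls ITGA5 stood at 13.7 ± 0.997, ITGB5 at 12.6 ± 0.603 and ITGAE at 11.8 ± 0.168, which lie within or near each other's spread. In H9 controls ITGB5 stood at 81.5 ± 1.56, far above ITGA7, a laminin-binding alpha subunit, at 20 ± 0.601 and ITGA5 at 17.5 ± 0.501. ITGB1, the beta subunit shared by many integrins, was at only 7.41 ± 0.00804 there. Transcripts rich in G and C had higher levels per length over all genes in both lines. Genes over 60% GC had a median of 8.17 CPM per kb in HEK293T controls and 11.3 in H9 controls, against 1.38 and 1.24 for genes under 45%. ITGB1 has 39.5% GC and ITGB5 54.3%, and the part of GC content in their levels was not tested.

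Laminin chains were led by LAMC3 in HEK293T controls (12.5 ± 0.102 CPM per kb) and by LAMB2 in H9 controls (30.2 ± 0.204). LAMA5, the alpha chain of laminin-511 and laminin-521, followed in H9 at 14.9 ± 0.0417 and LAMC1, the common gamma chain, at 12.5 ± 0.362. Collagens in HEK293T controls were led by COL6A1 at 47.2 ± 0.812 and COL4A2 at 30.02 ± 0.0722. In H9 controls COL18A1, the basement membrane collagen that carries endostatin, stood at 109.6 ± 0.520 and COL26A1 at 100.4 ± 1.83. The top collagen of each line was thus a chain of a microfibril or basement membrane collagen, not of a fibrillar one.

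**Figure D1:**
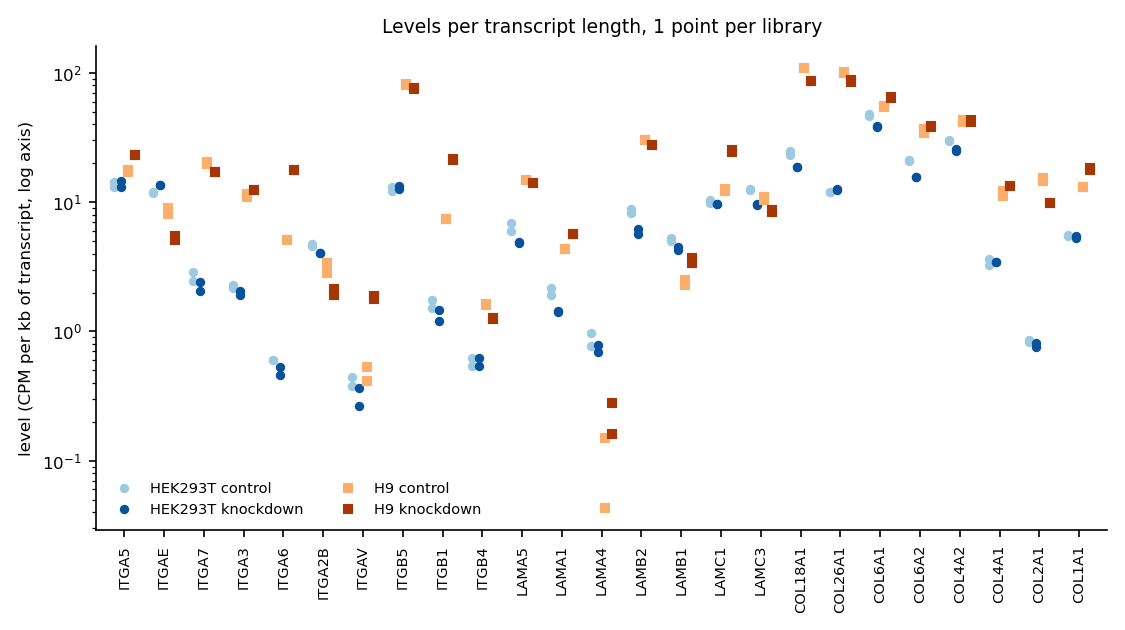
Level of selected members in CPM per kb of transcript on a log axis, with each library as 1 point (circles HEK293T, squares H9; light, controls; dark, eIF2A knockdown). ITGB5, COL18A1 and COL26A1 stand far higher in H9 than in HEK293T, LAMB1 and ITGAE stand lower, and ITGA6 and ITGB1 rise from control to knockdown in H9.

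Between the control groups, 44 members were higher and 16 lower in H9 by edgeR's quasi-likelihood test at an adjusted p under 0.05, 85.7% of 70 where 83.5% of all genes were called (42.3% higher and 41.2% lower). That total is near the background, but its directions are not. Of members 62.9% were higher and 22.9% lower, with a median log2 difference of 1.1 (0.0 for all genes). With each library's GC and length trend removed, the members' shares were 57.1 and 30% and their median 0.67. Shares of all genes in that fit are not given here. Whether the members' directions still differ from them was not tested. The higher members included 11 integrins. ITGA6 was at 28.7 and 28.6 CPM in H9 and 3.35 and 3.39 in HEK293T, a log2 difference of 3.08 ± 0.0944 (SE, adjusted p = 5.5e-26). COL2A1, the cartilage fibril chain, was at 74.3 and 78.2 CPM in H9 and 4.23 and 4.37 in HEK293T (4.14 ± 0.0763, adjusted p = 8.5e-33). LAMB1 went the other way, at 14.2 and 13.1 CPM in H9 and 30.01 and 28.7 in HEK293T (-1.10 ± 0.0766, adjusted p = 2.3e-15). LAMA4 was lower too, at 0.280 and 0.987 CPM in H9 against 5.05 and 6.38 (-3.21 ± 0.29, adjusted p = 9.2e-11). The direction for ITGA5, COL4A2 and COL6A1, higher in H9 by 0.35, 0.51 and 0.22, turned to -0.20, -0.20 and -0.31 once each library's trend with GC content and transcript length was removed.

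Chains of collagen I did not go together in HEK293T. COL1A1 was counted at 36.5 and 37.5 CPM in the HEK293T controls. COL1A2, which encodes the partner chain of the usual collagen I trimer, had 0 counts in all 4 HEK293T libraries. H9 controls held COL1A2 at 96.1 and 97.8 CPM, at least 741.9-fold higher against a floor of 3 counts in a library. COL22A1 was likewise at 0 in HEK293T (at least 35.6-fold higher in H9 controls), and COL19A1 was at 0 in every H9 library (at least 6.30-fold lower than in HEK293T controls). Intervals and floors of this kind cover counting error only.

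In HEK293T under arsenite, 5 of 11 laminins and 9 of 35 collagens were lower with eIF2A siRNA, while 6 laminins, 25 collagens and 22 of 24 integrins were not called. Of 70 members 15 were lower and 2 higher, 24.3% against 28.7% of all genes. Lower calls made up 21.4% of members against 14.7% of all genes, and higher calls 2.86% against 14.1%. Of the 15 lower, 10 were among the 23 members over 60% GC, where 751 of 2677 genes were lower and 256 higher. Between 45 and 60% GC, 5 of 38 members and 1053 of 7245 genes were lower. Under 45% GC these were 0 of 9 and 326 of 4577. The part of GC content in the lower share was not tested. The median log2 fold change was -0.19 for members and -0.00 for all genes tested. The libraries of the 2 groups did not overlap for 44 members, 62.9% against 58.8% of all genes. In bulk RNA, fewer cells of a type and less RNA per cell cannot be told apart. COL1A2 and COL22A1, at 0 in this line, are counted among the members not called.

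The laminins called lower were LAMB2, LAMA1, LAMA5, LAMC3 and LAMB1. LAMB2, the beta-2 chain, stood at 50.6 and 47.1 CPM in controls and 32.0 and 35.1 under siRNA, a log2 fold change of -0.54 ± 0.0525 (adjusted p = 9.7e-10). LAMA1, the alpha chain of the early embryonic laminin-111, went from 21.0 and 18.6 CPM to 13.8 and 13.6 (-0.52 ± 0.0744, adjusted p = 1.2e-06). LAMA5 went from 78.2 and 68.1 CPM to 55.4 and 56.5 (-0.38 ± 0.0490, adjusted p = 2.1e-07). In each of these the knockdown libraries lay below both controls. LAMC3 fell by 0.38 ± 0.0448 (adjusted p = 3.3e-08), from 77.0 and 76.1 CPM to 58.0 and 59.3. LAMB1 went from 30.01 and 28.7 CPM to 25.6 and 24.4 (-0.23 ± 0.0640, adjusted p = 0.0062), a call lost without the second siRNA library (adjusted p = 0.094). LAMC1, at 77.5 and 81.5 CPM in controls and 76.4 and 76.9 under siRNA, was not called (-0.056 ± 0.0421, adjusted p = 0.36). Laminin chains at over 10 CPM thus ranged from -0.54 to -0.056.

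Among the collagens 9 were lower and 1 higher. Collagen VI, a microfibril collagen around cells, was lower in both of its abundant chains. COL6A2 stood at 73.2 and 71.7 CPM in controls and 53.9 and 53.6 under siRNA (-0.43 ± 0.0453, adjusted p = 4.7e-09). COL6A1 stood at 202.3 and 197.4 CPM and then 165.0 and 161.8 (-0.29 ± 0.0340, adjusted p = 3.7e-08). COL18A1 went from 164.2 and 153.1 CPM to 122.5 and 123.4 (-0.37 ± 0.0359, adjusted p = 1.1e-09). All 3 were lower in each siRNA library than in either control. The fibrillar chain COL5A1 fell by 0.25 ± 0.0658 (adjusted p = 0.0035), whereas COL1A1 was not called (-0.033 ± 0.0527). COL7A1, which forms anchoring fibrils below epithelia, was the collagen called higher, at 1.66 and 1.51 CPM in controls and 2.65 and 2.56 under siRNA (0.73 ± 0.2, adjusted p = 0.005). That call rests on few counts and was lost without the second control library (adjusted p = 0.061).

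Among the integrins, ITGAE was higher and ITGA2B lower, and 22 of 24 were not called. ITGAE, the alpha subunit that pairs with beta-7 to bind E-cadherin on epithelia, stood at 46.1 and 45.2 CPM in controls and 52.0 and 52.5 under siRNA (0.20 ± 0.0519, adjusted p = 0.0039). RNA of the beta-7 subunit, ITGB7, was at only 0.167 and 0.121 CPM per kb in these controls, against 12.0 and 11.7 for ITGAE. ITGA5 (0.017 ± 0.0514), ITGB5 (0.046 ± 0.0451) and ITGA6 (-0.27 ± 0.15) were not called. ITGB1, at 5.53 and 6.35 CPM in controls and 4.42 and 5.32 under siRNA, had an adjusted p of 0.058 (-0.30 ± 0.12). With the GC and length trend removed ITGB1 was called lower (-0.32, adjusted p = 0.044) and ITGA2B was not called (-0.18, adjusted p = 0.13).

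These HEK293T calls varied with the library set and the tool. Without the second control library 12 members were called, and without the second siRNA library 12. COL14A1, COL4A5 and ITGA2B lost their calls with any 1 of the 4 HEK293T libraries left out (adjusted p up to 0.091, 0.12 and 0.19). ITGA2B also lost it without the first H9 control or either H9 shRNA library. COL4A6 (up to 0.19) lost it without the second control or either siRNA library, and COL23A1 (up to 0.23) without the second library of either group. DESeq2 called 9 members, all lower: LAMA1, LAMA5, LAMB2, LAMC3, COL18A1, COL4A2, COL5A1, COL6A1 and COL6A2.

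**Figure D2:**
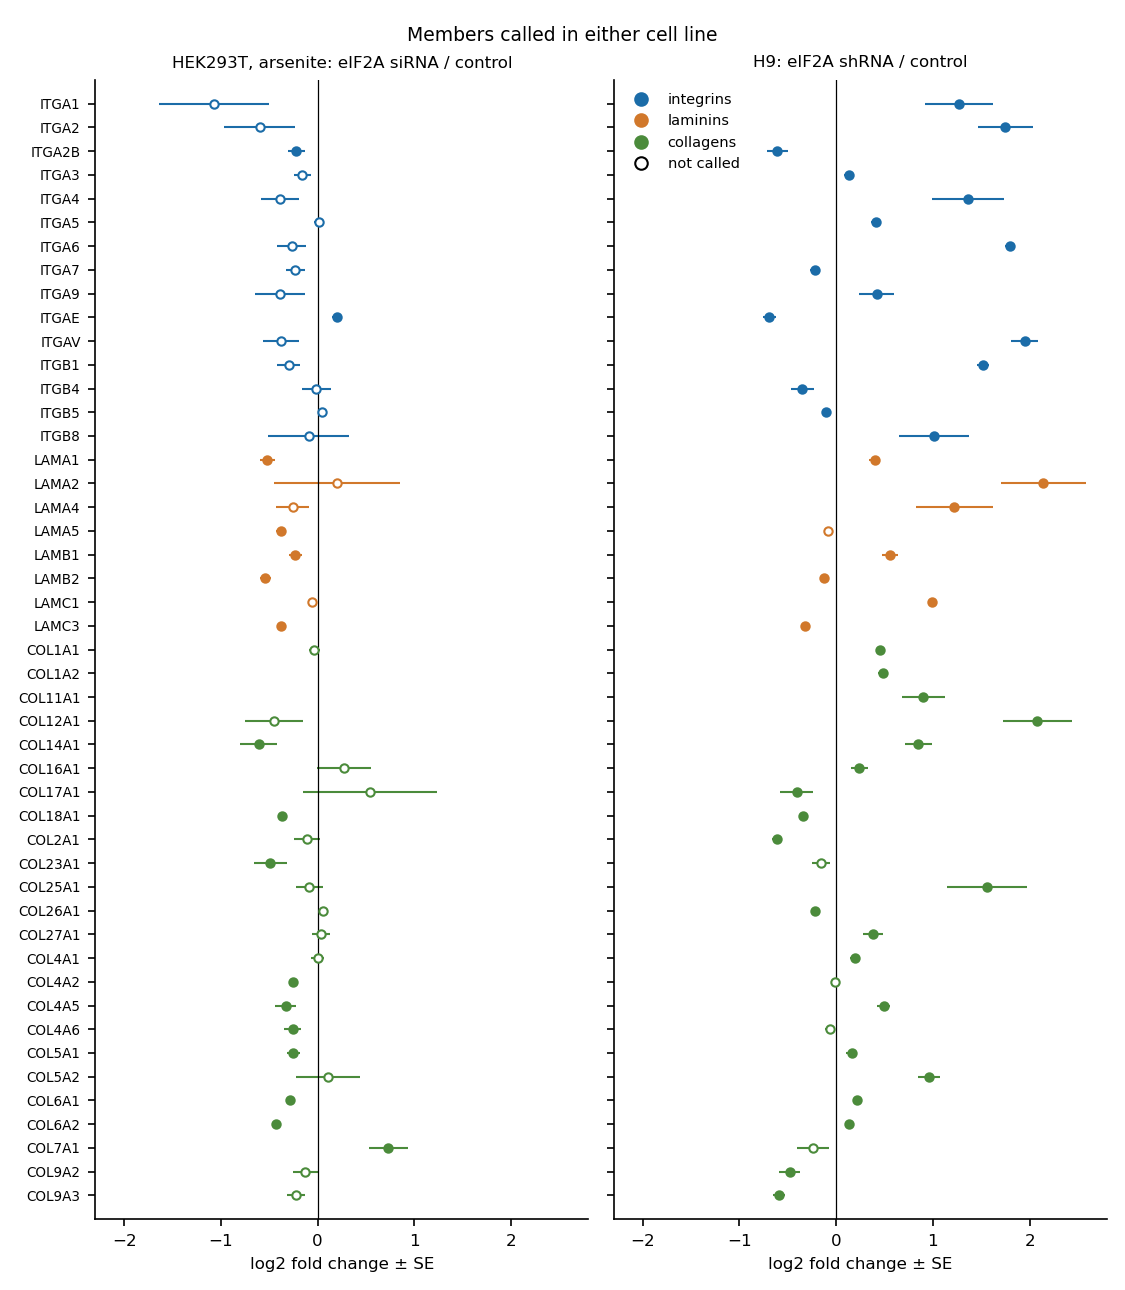
Log2 fold change of eIF2A knockdown against control ± SE for members called in either line and reported here (left, HEK293T with arsenite; right, H9; colours mark integrins, laminins and collagens; filled, adjusted p under 0.05). COL1A2 and COL11A1 are left out on the left because HEK293T had almost no counts; laminins and collagens lie mostly left of 0 in HEK293T, while ITGA6, ITGB1 and ITGAV lie at 1.5 or more in H9.

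In H9, the integrin subunits ITGA6, ITGB1 and ITGAV and the laminin chain LAMC1 were higher with eIF2A shRNA, and ITGAE and COL2A1 were lower. Of 70 members 30 were higher and 13 lower, 61.4% against 71.3% of all genes. Higher calls made up 42.9% of members against 37% of all genes, and lower calls 18.6% against 34.3%. The median log2 fold change was 0.15 for members and 0.02 for all genes. The 11 members called at 2-fold or more were all higher, 15.7% of members and near the 15.9% of all genes called that far higher (0.899% lower). Control and shRNA libraries did not overlap for 56 members, 80.0% against 84.9% of all genes.

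The direction of small changes in H9 depends on scaling. With DESeq2's size factors, which moved the median of all genes by -0.15, the same test gave 23 higher and 22 lower, and with upper-quartile scaling 31 and 10. DESeq2 itself gave 18 and 15. Shares of all genes called in each direction under these settings are not given here. Of the 43 calls 11 were lost when 1 H9 library was left out. Without the first control library 34 members were called, and the calls of ITGA1, ITGA9, ITGB5, ITGB8, LAMA4, COL16A1, COL17A1, COL4A1, COL5A1 and COL6A2 were lost. The other losses were ITGA3, ITGA9, COL16A1 and COL17A1 without the second control (39 called), ITGA3, ITGA9, LAMA4, COL16A1, COL17A1 and COL6A2 without the first shRNA library (37), and ITGA3, ITGB5, ITGB8 and COL5A1 without the second (39). Across all 14499 genes with a known transcript, the H9 log2 fold change also ran with GC content (Spearman's rho = -0.68) and length (0.45), and in HEK293T with neither to that degree (-0.10 and -0.10). Members are long (median 5725 bases against 3032 for all genes) and somewhat GC-rich (median 54.8% against 50.5%). Reads outside counted features made up 18.8 and 18.4% in the H9 controls and 20.8 and 20.6% under shRNA. With the GC and length trend removed from each library, 27 members were higher and 4 lower in H9 (38.6 and 5.71%, against 24.4 and 24.7% of all genes), and 3 of the former, 4.29% of members, were at 2-fold or more (2.32% of all genes higher and 1.57% lower). These 3 were LAMA2, COL12A1 and COL25A1, which rest on few counts, each under 1 CPM in the H9 controls. In what follows most H9 values are followed by the one with the trend removed.

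Of the 9 members under 45% GC, 7 were called higher in H9, and all 7 were integrins: ITGA1, ITGA2, ITGA4, ITGA6, ITGAV, ITGB1 and ITGB8. That is 77.8%, near the 75.3% of all genes of that range called higher. The median over these 9 was 1.36, where all 4577 genes had 0.85. Between 45 and 60% GC, 16 of 38 members were higher and 3 lower, 42.1 and 7.89% against 25.6 and 39.9% of all genes (median 0.29, all genes -0.10). Over 60% GC, 7 of 23 were higher and 10 lower, 30.4 and 43.5% against 2.95 and 68.6% (median -0.16, all genes -0.40). In each range the members' median lay above that of all genes, a description without a test. The ranges were not matched for length, in which members have a median of 5725 bases against 3032 for all genes. The part of length in these medians was not tested.

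**Figure D3:**
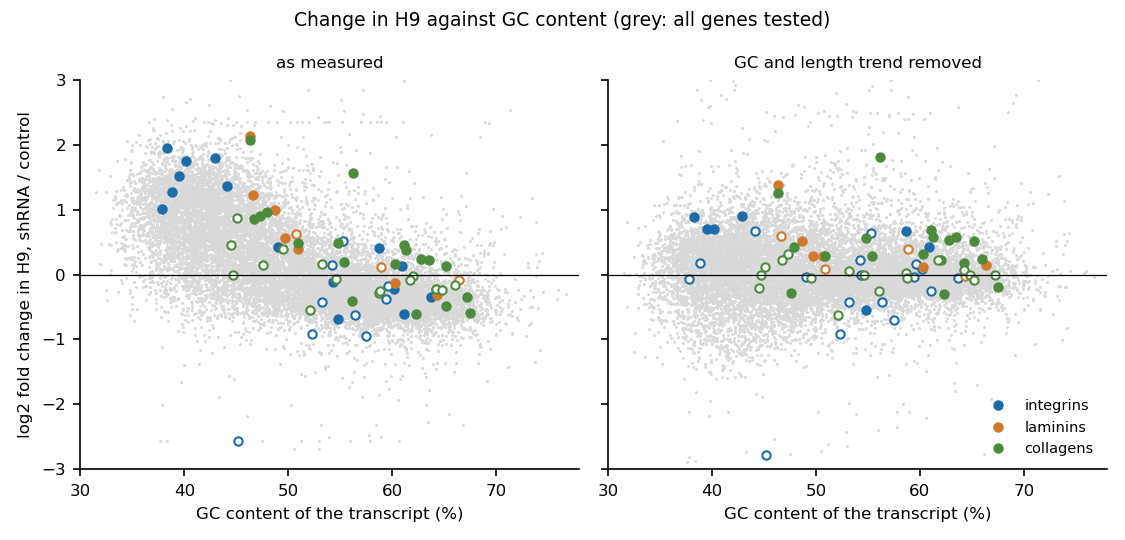
H9 log2 fold change (shRNA against control, y axis, shown from -3 to 3) against GC content of the transcript in percent (x axis), as measured on the left and with the trend removed on the right; grey points are all genes tested, coloured points the members reported here, filled where called. The integrins at the upper left under 45% GC come down towards 0 on the right, where ITGA6 (0.91), ITGAV (0.89) and ITGB1 (0.70) still lie above it.

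Integrins gave 10 higher and 5 lower of 24 in H9 (41.7 and 20.8%, against 37 and 34.3% of all genes). With the trend removed they gave 6 and 1 (25 and 4.17%, against 24.4 and 24.7%), and with DESeq2's size factors 8 and 6. Their higher shares thus lay near those of all genes as measured and with the trend removed. ITGA6, the alpha subunit of the laminin receptor alpha-6 beta-1, stood at 28.7 and 28.6 CPM in controls and 99.2 and 99.96 under shRNA. Its log2 fold change was 1.80 ± 0.0536 (adjusted p = 3.3e-24), and 0.91 ± 0.0535 with the trend removed (adjusted p = 1.9e-16). ITGB1 stood at 27 and 26.96 CPM and then 76.6 and 78.2 (1.52 ± 0.0590, adjusted p = 2.2e-21, trend removed 0.70). ITGAV, the alpha subunit of vitronectin receptors, stood at 3.73 and 2.91 CPM and then 12.5 and 13.2 (1.95 ± 0.14, adjusted p = 1.4e-14, trend removed 0.89). For all 3 the shRNA libraries were far above both controls and close to each other.

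ITGA5, which pairs with ITGB1 as the fibronectin receptor, has 58.7% GC. It stood at 79.1 and 76.0 CPM in controls and 103.3 and 102.5 under shRNA (0.41 ± 0.0496, adjusted p = 5.3e-09), and its change was larger with the trend removed (0.67, adjusted p = 2.6e-14). ITGA3, another laminin-binding subunit, was called at 0.13 ± 0.0514 (adjusted p = 0.024) and at 0.42 with the trend removed, but stood at -0.03 under DESeq2's size factors. ITGA3 also lost its call without the second H9 control library or either shRNA library (adjusted p up to 0.21).

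ITGAE fell in H9, from 34.7 and 31.5 CPM to 21.3 and 19.7 (-0.69 ± 0.0676, adjusted p = 3.6e-11, trend removed -0.55). It was the integrin still lower once the trend was removed. ITGA7 went from 77.0 and 80.4 CPM to 67.3 and 67.5 (-0.22 ± 0.0516, adjusted p = 2.4e-04), but stood at 0.09 with the trend removed (adjusted p = 0.15). ITGB5, the most abundant integrin, went from 361.2 and 351.6 CPM to 333.6 and 326.7 (-0.11 ± 0.0345, adjusted p = 0.0049, trend removed -0.012). The ITGB5 call was lost without the first control library or the second shRNA library (adjusted p up to 0.083).

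The windows before the starts of ITGA6, ITGB1 and LAMC1 are shown because these members had high counts and among the largest rises in H9. Each is 126 bases, 5′ to 3′ on the gene's strand, from RefSeq (GRCh38.p14), which held entries for 51 of the members. For a gene with more than 1 entry, the start furthest upstream was taken. It may not be the start of the counted transcript. Capitals mark matches on either strand to the GC box GGGCGG, to the box CCAAT and to the TATA box TATAAA, none of which overlap here. The ITGA6 window is chr2:172427210-172427335 on the plus strand, that of ITGB1 chr10:32958231-32958356 on the minus strand and that of LAMC1 chr1:183023294-183023419 on the plus strand.
ITGA6: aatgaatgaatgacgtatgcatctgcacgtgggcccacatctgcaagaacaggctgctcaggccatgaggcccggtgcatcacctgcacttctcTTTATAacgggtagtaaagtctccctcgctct
ITGB1: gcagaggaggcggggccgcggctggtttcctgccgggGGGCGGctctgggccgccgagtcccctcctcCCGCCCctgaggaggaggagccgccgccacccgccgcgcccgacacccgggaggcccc
LAMC1: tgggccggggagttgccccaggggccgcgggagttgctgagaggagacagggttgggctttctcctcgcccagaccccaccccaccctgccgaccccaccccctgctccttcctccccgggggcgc
They share none of these motifs: ITGA6 has 1 match to TATAAA (written here on the opposite strand), ITGB1 has 2 to GGGCGG and LAMC1 has none. Over all 35116 windows of this length, GGGCGG is held by 34.6%, CCAAT by 21.1% and TATAAA by 5.87%. Among the 65 windows of members these shares are 43.1, 15.4 and 6.15%. These matches are descriptions of letters, not of binding sites.

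Laminins gave 6 higher and 2 lower of 11 in H9 (54.5 and 18.2%, against 37 and 34.3% of all genes). With the trend removed they gave 6 and 0 (54.5 and 0%, against 24.4 and 24.7%), and with DESeq2's size factors 6 and 3. LAMC1 stood at 96.4 and 100.5 CPM in controls and 198.3 and 193.2 under shRNA (0.99 ± 0.0398, adjusted p = 5.2e-21, trend removed 0.51). LAMB1, the beta-1 chain that joins it in laminin-111 and laminin-511, stood at 14.2 and 13.1 CPM and then 19.4 and 21.0 (0.56 ± 0.0827, adjusted p = 2.2e-07, trend removed 0.28). For both chains each shRNA library lay above both controls.

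Alpha chains differed. LAMA1 rose from 42.1 and 41.7 CPM to 55.2 and 54.9 (0.40 ± 0.0559, adjusted p = 1.1e-07), but stood at 0.08 with the trend removed (adjusted p = 0.23). LAMA5, of 66.4% GC, stood at 170.7 and 170.0 CPM and then 161.0 and 160.1, which was not called (-0.085 ± 0.0424, adjusted p = 0.071) and became 0.15 with the trend removed (adjusted p = 0.0023). LAMB2 went from 170.5 and 172.1 CPM to 155.7 and 156.7 (-0.13 ± 0.0403, adjusted p = 0.0036) and turned to 0.12 with the trend removed. LAMC3 fell by 0.32 ± 0.0489 (adjusted p = 3.8e-07) and stood at -0.024 with the trend removed. LAMA2 and LAMA4 were called higher at levels under 2 CPM, and the LAMA4 call was lost without the first control or the first shRNA library (adjusted p up to 0.23) and with the trend removed (adjusted p = 0.25).

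Collagens gave 14 higher and 6 lower of 35 in H9 (40 and 17.1%, against 37 and 34.3% of all genes). With the trend removed they gave 15 and 3 (42.9 and 8.57%, against 24.4 and 24.7%), and with DESeq2's size factors 9 and 13. Among fibrillar chains 6 of 10 were higher and 1 lower as measured (60 and 10%). COL1A1 went from 88.7 and 87.7 CPM to 118.4 and 123.5 (0.45 ± 0.0430, adjusted p = 1.6e-11, trend removed 0.68). COL1A2 went from 96.1 and 97.8 CPM to 131.8 and 137.8 (0.48 ± 0.0437, adjusted p = 1.7e-11, trend removed 0.57). Both collagen I chains were higher in each shRNA library than in either control, and the ratio of COL1A1 to COL1A2 per length stayed at 0.721 to 0.742 in all 4 H9 libraries. COL5A2, a chain that joins collagen I fibrils, rose from 7.60 and 7.998 CPM to 15.4 and 14.8 (0.96 ± 0.11, adjusted p = 5.4e-10, trend removed 0.43).

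COL2A1 fell, from 74.3 and 78.2 CPM to 49.8 and 50.2 (-0.61 ± 0.0505, adjusted p = 6.8e-13, trend removed -0.30). COL9A3, a chain of collagen IX that decorates collagen II fibrils, fell from 36.7 and 37.5 CPM to 25.6 and 23.7 (-0.59 ± 0.0655, adjusted p = 7.7e-10, trend removed -0.19). COL18A1, the most abundant collagen, went from 724.4 and 719.5 CPM to 569.8 and 571.0 (-0.34 ± 0.0318, adjusted p = 1.2e-11), but has 67.2% GC and stood at -0.012 with the trend removed. COL26A1 went from 308.4 and 300.6 CPM to 267.0 and 257.5 (-0.22 ± 0.0339, adjusted p = 8.1e-07) and turned to 0.18 with the trend removed.

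COL6A1 was higher, at 229.6 and 235.6 CPM in controls and 274.0 and 269.1 under shRNA (0.22 ± 0.0336, adjusted p = 3.4e-07, trend removed 0.58). COL6A2 was called at 0.13 ± 0.0408 (adjusted p = 0.0064, trend removed 0.51) but stood at -0.03 under DESeq2's size factors. The COL6A2 call was also lost without the first control or the first shRNA library (adjusted p up to 0.18). COL12A1 and COL25A1 rose by 2.08 ± 0.36 and 1.56 ± 0.41 from under 1 CPM, and both held with the trend removed (1.26 and 1.82).

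Markers of other cell types were called in H9 too, each list below the 71.3% of all genes called as measured. The shares were 44.4% of fibroblast or mesenchymal, 66.7% of endothelial, 37.5% of kidney lineage and 42.9% of endoderm markers tested. The 12 fibroblast or mesenchymal markers summed to 1159 and 1179 CPM in controls and 946.0 and 941.3 under shRNA. Most of that was THY1, which stem cells also carry. Of 9 tested, THY1, ACTA2 and S100A4 were lower and TWIST1 higher (2.47 ± 0.56, from under 1 CPM), while DCN, LUM, FAP and PRRX1 had at most 0.116 CPM in any H9 library. With the trend removed PDGFRB, TAGLN and TWIST1 were higher and ACTA2, PDGFRA, S100A4, SNAI2 and THY1 lower. These are 33.3 and 55.6% of the 9, against 24.4 and 24.7% of all genes. The 7 endothelial markers summed to 42.4 and 43.2 CPM in controls and 83.0 and 78.1 under shRNA, a sum carried by KDR. KDR (1.20 ± 0.0665, trend removed 0.64) and TEK (1.15 ± 0.16, trend removed 0.50) were higher, and CDH5 (-0.96 ± 0.29, trend removed -0.82) and TIE1 (-1.0 ± 0.17, trend removed -0.67) lower, with PECAM1 at 0 in both controls and at most 0.0424 CPM under shRNA. Kidney lineage markers summed to 63.9 and 60.1 CPM and then 78.4 and 82.2, with SALL1 and EYA1 higher and PAX8 lower of 8. Endoderm markers summed to 10.5 and 12.0 CPM and then 10.9 and 10.7, with CER1 and GATA4 higher and FOXA2 lower of 7 tested. With the trend removed EYA1 and FOXA2 were not called, while SIX2 was called higher and AFP lower. The pluripotency markers summed to 6379 and 6397 CPM and then 5956 and 6045. Of these 10, DPPA4, L1TD1, SALL4 and SOX2 were higher and CRIPTO, DNMT3B, LIN28A, POU5F1 and ZFP42 lower, 90% called against 71.3% of all genes (2 higher and 6 lower with the trend removed). The POU5F1 call (-0.48 ± 0.14) was lost without either HEK293T control library (adjusted p up to 0.061) and that of LIN28A (-0.11 ± 0.0325) without the first H9 shRNA library (0.075). The part of these shifts in the matrix transcripts was not tested.

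The lines differed in their response for 35 members, 50% of those tested against 58.1% of all genes. For 28 the H9 log2 fold change was above that of HEK293T and for 7 below it (31.1 and 27% of all genes). These became 29 and 2 with the trend removed (20.9 and 20.6% of all genes) and 21 and 12 with DESeq2's size factors. The laminins called for it, 8, 8 and 6 under these settings, all had the higher value in H9. The difference was 2.07 ± 0.16 for ITGA6 (adjusted p = 4.8e-13), 1.82 ± 0.14 for ITGB1 (adjusted p = 1.8e-13) and 1.05 ± 0.0580 for LAMC1 (adjusted p = 1.4e-16). With the trend removed these were 1.18, 1.02 and 0.54, all still called. LAMA1 was called in opposite directions, lower in HEK293T and higher in H9 (difference 0.92 ± 0.0930, adjusted p = 2.2e-10, trend removed 0.58). The same opposite calls were made for LAMB1, COL14A1, COL4A5, COL5A1, COL6A1 and COL6A2, of which COL6A2 turned in H9 under DESeq2's size factors. With 1 library left out, the HEK293T calls of LAMB1, COL14A1 and COL4A5 and the H9 calls of COL5A1 and COL6A2 were lost. DESeq2 did not call LAMB1, COL14A1 or COL4A5 in HEK293T. The share of all genes with opposite calls was not counted. LAMA1 and COL14A1 were no longer called in H9 with the trend removed. COL6A1 had a difference of 0.51 ± 0.0478 (adjusted p = 3.1e-11) and 0.81 with the trend removed. ITGAE went the other way, higher in HEK293T and lower in H9 (-0.89 ± 0.0853, adjusted p = 6.4e-11, trend removed -0.75).

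The members called lower in both lines were 4: ITGA2B, LAMB2, LAMC3 and COL18A1. Of all genes, 14.7% were called lower in HEK293T and 34.3% in H9. Their share lower in both was not counted, so 4 is not read as few or many. With the trend removed no member was called lower in both: LAMB2 was called higher in H9, the other three were not called there, and ITGA2B was not called in HEK293T either. For COL18A1 the changes were -0.37 in HEK293T and -0.34 in H9 (trend removed -0.31 and -0.012), and their difference was not called (0.025 ± 0.0479, adjusted p = 0.68). With the trend removed that difference was 0.30 (adjusted p = 1.7e-06).

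The mix of subunit RNAs in H9 was another under shRNA. Shares are of the summed CPM per kb of a subunit family, given with the SD over 2 libraries, and have no test, since 2 against 2 cannot go below p = 0.33 in an exact permutation test. ITGA6 was 7.61 ± 0.149% of integrin alpha RNA in H9 controls and 21.8 ± 0.205% under shRNA. ITGA7 went from 29.8 ± 1.53 to 21.1 ± 0.127% and ITGAE from 12.8 ± 0.615 to 6.54 ± 0.332%. ITGB1 went from 8.12 ± 0.149 to 21.5 ± 0.488% of beta subunit RNA, while ITGB5 went from 89.2 ± 0.0141 to 76.4 ± 0.530%. In HEK293T the ITGB1 share was 10.7 ± 1.30% in controls and 8.65 ± 1.18% under siRNA, a difference not far above these SDs. Among laminin alpha chains LAMA5 remained the larger share, 76.8 ± 0.170% in controls and 69.5 ± 0.233% under shRNA. These shares are of values as measured, with the GC trend in them.

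**Figure D4:**
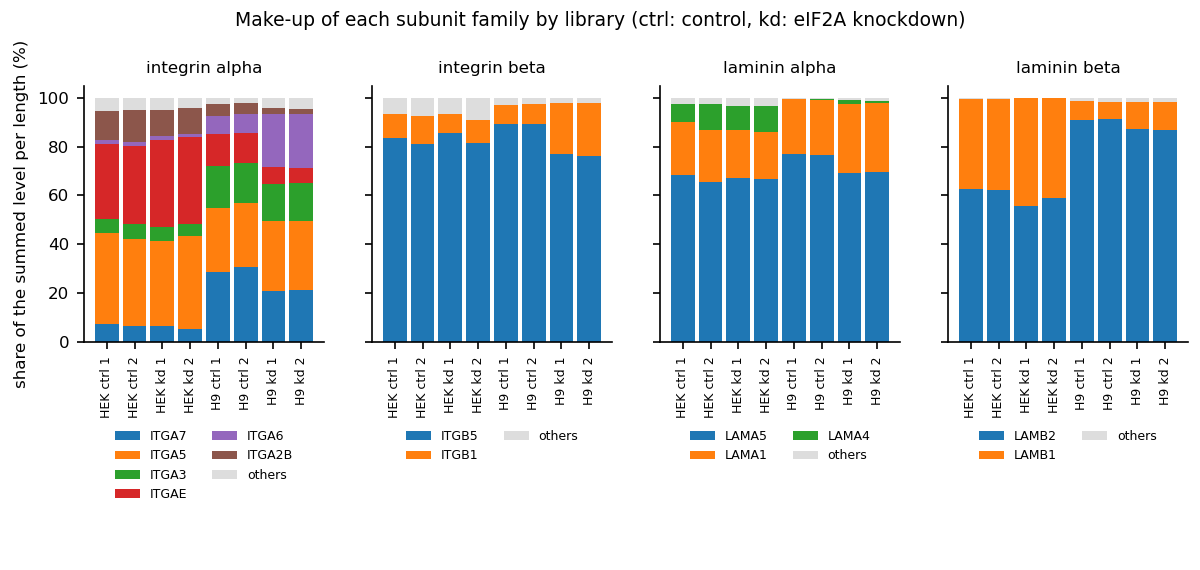
Share in percent of the summed level per length that each subunit takes in its family, 1 bar per library (ctrl, control; kd, eIF2A knockdown; members under 5% in every library are pooled as others). In H9, ITGA6 grows from 7.61 to 21.8% of integrin alpha RNA and ITGB1 from 8.12 to 21.5% of integrin beta RNA, on means of 2 libraries.

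Collagen IV genes lie in head-to-head pairs whose products assemble together, and the pairs allow members with a shared promoter region to be compared. COL4A2 stood at 195.3 and 194.6 CPM in HEK293T controls and 161.5 and 166.0 under siRNA (-0.25 ± 0.0344, adjusted p = 5.5e-07). COL4A1 stood at 24.1 and 21.6 CPM and then 22.7 and 22.8, with overlapping groups (0.002 ± 0.0674, adjusted p = 1). In H9 it was COL4A1 that was called, at 73.7 and 80.8 CPM in controls and 87.5 and 88.2 under shRNA (0.19 ± 0.0492, adjusted p = 0.001, trend removed 0.28), a call lost without the first control library (adjusted p = 0.078). COL4A2 was at 272.9 and 281.3 CPM and then 269.5 and 278.2 in H9 (-0.017 ± 0.0335, adjusted p = 0.66), but 0.23 with the trend removed (adjusted p = 1.7e-07). The ratio of COL4A1 to COL4A2 per length was 0.121 and 0.109 in HEK293T controls and 0.138 and 0.135 under siRNA, and 0.265 and 0.282 in H9 controls and 0.319 and 0.311 under shRNA. In both lines it was higher in each knockdown library than in either control. These ratios are of values as measured, and with the trend removed COL4A1 and COL4A2 changed by 0.28 and 0.23 in H9.

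In the second pair, on the X chromosome, COL4A5 alone was called in H9. COL4A5 rose from 27.2 and 25.4 CPM to 37.1 and 37.2 (0.49 ± 0.0653, adjusted p = 2.8e-08, trend removed 0.28), while COL4A6 was at 60.2 and 61.1 CPM and then 58.3 and 57.6 (-0.066 ± 0.0503, adjusted p = 0.24). Their ratio per length went from 0.471 and 0.433 to 0.662 and 0.672. In HEK293T both chains were called lower, COL4A5 at -0.33 ± 0.11 (adjusted p = 0.019) and COL4A6 at -0.26 ± 0.0871 (adjusted p = 0.024). COL4A3 and COL4A4, the third pair, had at most 0.760 CPM in any library.

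**Figure D5:**
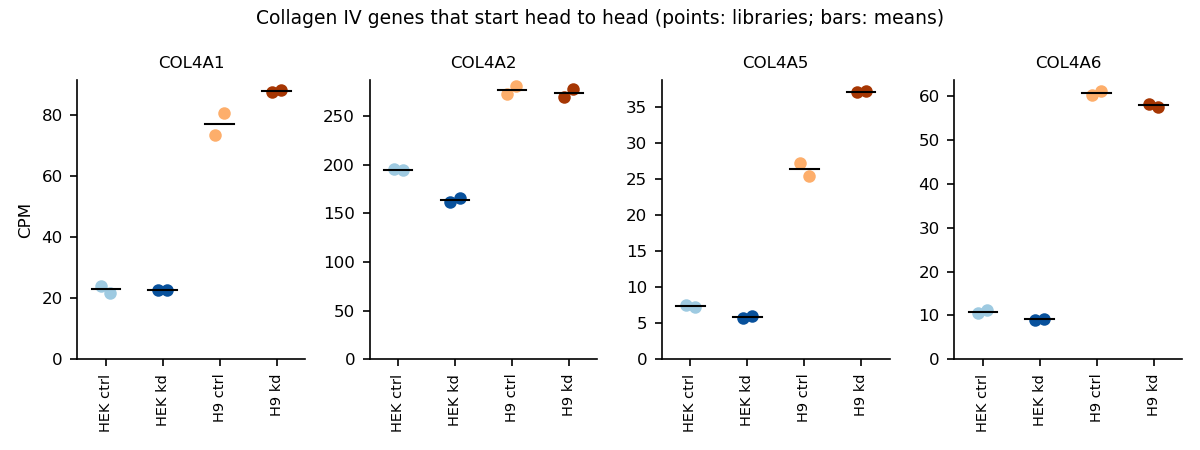
CPM of the 4 abundant collagen IV genes by group (y axis from 0; points are libraries, bars group means; ctrl, control; kd, eIF2A knockdown). COL4A2 falls in HEK293T while COL4A1 does not, and in H9 COL4A5 rises to 37.1 and 37.2 CPM while COL4A6 stays near 60.

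The starts of COL4A1 and COL4A2 lie 126 bases apart and those of COL4A5 and COL4A6 379 bases apart in the RefSeq entries. The first entry listed was used for COL4A1 and COL4A2, and the start furthest upstream for COL4A5 and COL4A6. The whole interval between COL4A1 and COL4A2 is shown, on the plus strand, on which COL4A2 runs. It was chosen because both genes start from it and, as measured, only COL4A1 or only COL4A2 was called in each line. With the trend removed both were called higher in H9. The interval is chr13:110307158-110307283 (GRCh38.p14), and the windows of the same length before COL4A5 and COL4A6 are chrX:108439712-108439837 on the plus strand and chrX:108439459-108439584 on the minus strand. Capitals mark the same motifs on either strand.
COL4A1-COL4A2 interval: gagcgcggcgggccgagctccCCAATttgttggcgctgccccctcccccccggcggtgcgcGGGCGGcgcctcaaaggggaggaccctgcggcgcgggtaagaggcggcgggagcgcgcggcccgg
COL4A5: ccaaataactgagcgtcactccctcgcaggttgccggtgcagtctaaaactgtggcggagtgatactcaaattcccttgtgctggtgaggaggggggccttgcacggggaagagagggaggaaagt
COL4A6: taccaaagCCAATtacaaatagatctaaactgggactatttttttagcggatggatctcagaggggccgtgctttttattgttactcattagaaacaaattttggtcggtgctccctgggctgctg
The COL4A1-COL4A2 interval is 80.2% GC and holds 1 CCAAT and 1 GGGCGG. The COL4A5 window is 56.3% GC with none of the motifs, and the COL4A6 window is 42.1% GC with 1 CCAAT.

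Genes that act on or with the members were counted from lists that hold no member. The shares of all genes to read them against were 14.7% lower and 14.1% higher in HEK293T, 37% higher and 34.3% lower in H9, and 24.4 and 24.7% in H9 with the trend removed. Of 28 collagen-processing genes tested, 14 were lower and 2 higher in HEK293T (50 and 7.14%). P4HB, a subunit of the prolyl hydroxylase that stabilises the collagen helix, fell by 0.30 ± 0.0282 (adjusted p = 6.1e-10), and the prolyl 3-hydroxylases P3H1 and P3H3 fell by 0.36 ± 0.0345 and 0.45 ± 0.0457. SERPINH1, the collagen chaperone HSP47, was higher there (0.18 ± 0.0362, adjusted p = 1.7e-04) and was named after its value was seen. In H9 7 were higher and 14 lower (25 and 50%), which became 15 and 2 with the trend removed (53.6 and 7.14%). MIA3, which helps load collagen into transport carriers, rose by 1.52 ± 0.10 in H9 (trend removed 0.50), and CRTAP, the partner of P3H1, fell by 0.35 ± 0.0334 (trend removed -0.69).

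Of 30 integrin adhesion proteins, 6 were lower and 1 higher in HEK293T (20 and 3.33%), the lower among them FLNA (-0.28 ± 0.0332), ILK (-0.23 ± 0.0374) and TLN1 (-0.18 ± 0.0323), which link integrins to actin. In H9 9 were higher and 11 lower (30 and 36.7%), near the shares of all genes, and 16 and 3 with the trend removed (53.3 and 10%). PTK2, the focal adhesion kinase, rose by 1.29 ± 0.0549 (trend removed 0.62), the kindlin FERMT2 by 1.46 ± 0.0711 (0.73) and VCL, vinculin, by 0.59 ± 0.0328 (0.29). Of 24 other matrix ligands and laminin receptors, 8 were lower and 4 higher in HEK293T (33.3 and 16.7%). AGRN, a laminin-binding proteoglycan, fell by 0.53 ± 0.0398 there, and DAG1, the dystroglycan laminin receptor, rose by 0.22 ± 0.0341. In H9 10 were higher and 10 lower (41.7% each), and 12 and 4 with the trend removed (50 and 16.7%), with FBN2 at 1.23 ± 0.0790 (0.60). Of 18 matrix proteases and inhibitors, 4 were lower and 1 higher in HEK293T (22.2 and 5.56%). In H9 8 were higher and 8 lower (44.4% each), and 6 and 6 with the trend removed (33.3% each). TIMP2, a metalloprotease inhibitor, went in opposite directions, by 0.19 ± 0.0439 in HEK293T and -0.79 ± 0.0477 in H9 (trend removed -0.70).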

How the data were processed

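RNA extracted with TRIzol went into TruSeq Stranded mRNA libraries, per the labels' protocols. The submitters' processing notes name cutadapt, STAR 2.5.2b and the build hg19. The authors deposited 1 file of raw read counts for each library, by RefSeq accession and not normalized. Neither the program that counted, nor its strand setting or annotation, is given in the sources used here, so overlapping antisense genes may share counts. Special counters stayed out of every total and test. Symbols came from RefSeq and GENCODE tables, and 194 accessions stayed unnamed.

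Counts were tested with edgeR 4.0.16 (R 4.3.3): filterByExpr, TMM, 4 group means over 8 libraries (4 residual degrees of freedom), robust quasi-likelihood F test, two-sided, with Benjamini-Hochberg adjustment over 14565 genes. SEs came from the F statistic. The trend-removed fit used offsets per library from a smooth of GC content and transcript length (mgcv 1.9.3). Scripts were tested on simulated data. Alternatives were other scalings and filters, DESeq2 1.42.0, limma-voom (limma 3.58.1), 1 line alone, each library left out, a block for the set number, and an adjusted p under 0.01. Members, lists and rules were chosen with earlier results of these data known. A member is counted but not reported here by name. Genes named with values were, per line and group, up to 5 called members of at least 1 CPM with the largest change in each direction, the 3 with the highest control level, a fixed set of common subunits, up to 5 members with the largest difference between lines, and up to 3 genes of each pathway list. Others were named after their values were seen, among them COL1A1, COL1A2, COL5A1, COL25A1, COL4A6, ITGA3 and the marker genes.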

Additional observations from a re-analysis of the deposited data

Results flagged for a closer look

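Of the 35 members called for a difference between the lines, those taken by the naming rule are given with the difference itself, the H9 log2 fold change minus that in HEK293T (edgeR's quasi-likelihood test, adjusted p under 0.05). Line, arsenite and the kind of RNA interference cannot be told apart in it. Among integrins it was 2.34 for ITGA1, 2.35 for ITGA2, 2.07 for ITGA6, 2.32 for ITGAV, 1.82 for ITGB1 and 0.39 for ITGA5. It was negative for ITGAE (-0.89), ITGA2B (-0.38) and ITGB5 (-0.16). All 8 laminins called had a positive difference, which was 0.92 for LAMA1, 1.47 for LAMA4, 0.29 for LAMA5, 0.79 for LAMB1, 0.40 for LAMB2 and 1.05 for LAMC1 of those given here. Among collagens it was 2.52 for COL12A1, 1.46 for COL14A1, 0.85 for COL5A2, 0.83 for COL4A5, 0.56 for COL6A2, 0.51 for COL6A1 and 0.23 for COL4A2. It was negative for COL7A1 (-0.97), COL2A1 (-0.50), COL9A3 (-0.37) and COL26A1 (-0.27). With 2 libraries a group, no group was large enough to be searched for a library that stands apart. The call was lost for ITGA2B (adjusted p up to 0.19) without the first H9 control or second H9 shRNA library. It was lost for ITGB5 (0.15) without either of these, the second HEK293T control or the first siRNA library. LAMA4 (0.12) lost it without the first H9 control or first H9 shRNA library, and COL5A2 (0.19) without any of 5 libraries. With the GC and length trend removed, ITGA1, ITGA2B, ITGB5, LAMA4, COL2A1, COL26A1, COL5A2 and COL9A3 were no longer called.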

How the results depend on the processing

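The HEK293T count of 17 called members became 9 with DESeq2 (9 lower, 0 higher; 2 were higher at an unadjusted p under 0.05, and 31 members had no adjusted p) and the 2 higher calls became 1 with a filter of at least 5 CPM. With 1 library left out the counts ran from 12 to 17 in HEK293T (1 to 3 higher), 34 to 44 in H9, 30 to 34 for the difference and 59 to 61 between controls. The H9 calls became 18 higher with DESeq2, 22 lower with DESeq2's size factors and 4 lower with the GC and length trend removed, also with the replicate block. The control contrast gave 39 of 60 with the 5 CPM filter, which tests fewer members. With the trend removed, with or without the replicate block, the H9 change turned for ITGA7 (0.09), ITGA9 (-0.03), ITGB8 (-0.07), LAMA5 (0.15), LAMB2 (0.12), COL23A1 (0.24), COL26A1 (0.18), COL4A2 (0.23) and COL9A1 (-0.28), the difference for COL26A1 (0.07) and COL9A3 (0.01, or 0.00 with the block), and the control contrast for ITGA5 (-0.20), COL4A2 (-0.20) and COL6A1 (-0.31). DESeq2 and its size factors turned ITGA3 and COL6A2 in H9 (-0.03 each), and the size factors turned the COL18A1 difference (-0.13). Apart from the steps that define the trend and scaling fits, the cause was not tested. Deviations of libraries with the same set number had a correlation of -0.02 in HEK293T and 0 in H9. Outside the HEK293T controls, libraries of a group differed little beyond sampling noise (chi-square of 1.35 to 1.8 per degree of freedom). Whether the set numbers pair the samples was therefore not tested by this correlation. The replicate block left the counts at 17, 43, 35 and 60. With the block, ITGA7 (adjusted p = 0.041) was called and ITGA2B (0.055) was not in HEK293T. For the difference, then 27 higher and 8 lower, ITGB2 (0.045) was called and LAMA2 (0.051) was not. Members under about 1 CPM rest on few counts.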
